A study of Mus musculus with 2 samples.

Results

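The interleukin 1 and inflammasome genes are 10 genes taken by symbol: the ligand genes Il1a, Il1b and Il18, the antagonist gene Il1rn, the receptor genes Il1r1, Il1r2 and Il1rap, the sensor gene Nlrp3 and the protease genes Casp1 and Casp4. All 10 stood in the count table of 32285 genes. They were followed across cell types of Hepa1-6 tumours, which grow from a mouse hepatoma line, in 2 single-cell RNA libraries. One library came from control tumours and the other from mice given CD147-LYTACs in 4 doses of 40 mg/kg, 1 every 3 days, and both sets of tumours were collected at day 12. The labels name the route as intraperitoneal or intravenous without saying which. A LYTAC, or lysosome-targeting chimaera, is built to carry a surface protein to the lysosome, and CD147 is the surface glycoprotein basigin. The sources used here state neither what the control mice received nor how many mice each library holds. In both groups, cells negative and positive for the leukocyte marker CD45 were sorted and mixed again at 1 to 3, so the shares of cell types are not those of the tumour. With 1 library per group, treatment and library cannot be told apart, no test between the groups was possible, and every interval below covers counting error only.

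Interleukin 1 alpha and interleukin 1 beta are inflammatory cytokines that bind the same receptor, made of the signalling chain Il1r1 and the accessory chain Il1rap. The decoy receptor Il1r2 binds the ligands without signalling, and the antagonist Il1rn occupies the receptor. Interleukin 1 beta and interleukin 18 are made as inactive precursors: the sensor Nlrp3 assembles an inflammasome that activates the protease Casp1, which cuts both, while Casp4 (caspase 11 in mice) senses lipopolysaccharide inside cells. Transcript levels give no measure of that cleavage or of secretion. In tumours, myeloid cells are a known source of interleukin 1.

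The 10 genes lie on 5 mouse chromosomes in the mm10 annotation (GENCODE M21). Il1a (chr2:129299610-129309972) and Il1b (chr2:129364570-129371139) are neighbours on the minus strand, and Il1rn (chr2:24336853-24351494) lies elsewhere on the same chromosome on the plus strand. Il1r2 (chr1:40074079-40125231) and Il1r1 (chr1:40225080-40317257) are neighbours on the plus strand, as are Casp1 (chr9:5298517-5307265) and Casp4 (chr9:5308828-5336783). Il18 (chr9:50554827-50581840), Nlrp3 (chr11:59541568-59566956) and Il1rap (chr16:26581704-26730117) are also on the plus strand. The start regions of 5 members are shown because their genes were high in different cells: Il1a, Il1b, Il1rn and Nlrp3 in neutrophils, and Il1r1 in fibroblast or mural cells. Each line gives the 250 bases before the RefSeq start nearest to the annotated gene start (RefSeq, GRCm38.p6), 5′ to 3′ on the gene's strand, with motif matches in capitals.
Il1a: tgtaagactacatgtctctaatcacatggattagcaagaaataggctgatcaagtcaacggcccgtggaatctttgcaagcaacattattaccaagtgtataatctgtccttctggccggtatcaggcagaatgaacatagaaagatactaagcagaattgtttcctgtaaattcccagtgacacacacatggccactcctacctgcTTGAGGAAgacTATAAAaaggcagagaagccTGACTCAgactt
Il1b: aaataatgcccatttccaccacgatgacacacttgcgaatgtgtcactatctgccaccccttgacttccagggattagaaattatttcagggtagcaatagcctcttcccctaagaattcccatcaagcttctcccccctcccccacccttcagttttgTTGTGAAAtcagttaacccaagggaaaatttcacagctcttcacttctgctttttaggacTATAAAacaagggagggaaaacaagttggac
Il1rn: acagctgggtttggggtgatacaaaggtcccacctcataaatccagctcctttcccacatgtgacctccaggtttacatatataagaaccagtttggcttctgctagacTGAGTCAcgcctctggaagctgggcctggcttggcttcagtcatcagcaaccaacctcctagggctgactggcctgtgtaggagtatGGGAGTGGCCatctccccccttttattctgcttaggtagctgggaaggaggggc
Nlrp3: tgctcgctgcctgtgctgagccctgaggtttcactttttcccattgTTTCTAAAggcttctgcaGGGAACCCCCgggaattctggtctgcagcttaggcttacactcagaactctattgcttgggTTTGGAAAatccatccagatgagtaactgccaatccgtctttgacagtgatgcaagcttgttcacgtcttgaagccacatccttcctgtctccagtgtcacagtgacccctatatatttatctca
Il1r1: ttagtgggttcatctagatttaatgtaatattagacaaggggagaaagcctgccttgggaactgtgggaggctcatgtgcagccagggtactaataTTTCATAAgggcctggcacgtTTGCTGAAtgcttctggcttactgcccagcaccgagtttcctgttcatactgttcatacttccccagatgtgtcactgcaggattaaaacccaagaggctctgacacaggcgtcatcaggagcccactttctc
The windows are chr2:129309973-129310222 (minus strand) for Il1a, chr2:129371140-129371389 (minus strand) for Il1b, chr2:24336610-24336859 for Il1rn, chr11:59541319-59541568 for Nlrp3 and chr1:40224830-40225079 for Il1r1. The 5 motifs below were searched, 4 of them on both strands, and matches may overlap. The PU.1 core GAGGAA stood in 23.3% of 32851 promoter windows of the same length, the NF-kB motif (GGG, any 5 bases, then CC) in 45.8%, the C/EBP letters TTNNGNAA in 36.8% and the AP-1 letters TGANTCA in 6.75%. TATAAA, searched on the given strand only, stood in 7.59%. The Il1a window held TATAAA 32 bases, GAGGAA 41 bases and TGACTCA 12 bases before the start. That GAGGAA lies within the C/EBP match TTGAGGAA, 43 bases before the start. The Il1b window held TATAAA 31 bases and TTGTGAAA 91 bases before the start. In the Il1rn window TGAGTCA stood 141 bases and GGGAGTGGCC 54 bases before the start. In the Nlrp3 window the C/EBP matches TTTCTAAA and TTTGGAAA stood 204 and 125 bases and the NF-kB match GGGAACCCCC 186 bases before the start. In the Il1r1 window the C/EBP matches TTTCATAA and TTGCTGAA stood 154 and 133 bases before the start. The Il1rn, Nlrp3 and Il1r1 windows held no TATAAA. A match is a run of letters, not a measured binding site.

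The libraries held 8150 control and 9219 treated barcodes with 143495332 and 149812326 unique molecular identifiers (UMIs, each counting 1 captured transcript), and 24 barcodes occurred in both. After filtering, 6689 control and 7641 treated cells were kept. Cell types were assigned by marker panels that held none of the 10 genes, and 6066 control and 6853 treated cells passed a gate. A further 167 and 376 cells matched more than one panel, including 24 control and 163 treated cells with both T and monocyte or macrophage markers, and 456 and 412 matched none. Neutrophils, the short-lived granulocytes of acute inflammation, numbered 182 in the control library and 1377 in the treated one, with median depths of 2657 and 2703 UMIs. Monocytes or macrophages numbered 181 and 534, conventional dendritic cells 117 and 85, T cells 3515 and 2581, NK cells 90 and 101, fibroblast or mural cells 22 and 40 and hepatoma cells 1882 and 2061. Hepatoma-gated cells expressed Krt8, Krt18, Alb, Afp and Epcam, but the liver markers Igf2, H19, Serpina1a and Fabp1 were at 0 to 2 UMIs in each library. The other panel markers were also rare: Apoa1, Ttr and Ahsg were in at most 0.534% of these cells, and Apoa2 and Cdh1 in at most 8.77%. Levels are in CPM, the counts per 1000000 UMIs of that cell type in that library.

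Il1a, Il1b, Il1rn, Il1rap, Nlrp3 and Casp4 were each highest in neutrophils in both libraries, as the plot of levels by cell type shows. Il1r1 was instead highest in fibroblast or mural cells, and the ranges of Il18 and of Casp1 overlapped from one cell type to the next in the upper part of their order. A member was counted as higher or lower when its level differed by at least 1.5-fold with a 95% interval that excluded no difference, counting only genes that reached 50 UMIs in that cell type when the 2 libraries were added. By that rule, 2 of 9 tested members were higher and 1 was lower in treated neutrophils, where 4.47% of 5572 genes were higher and 17.6% were lower. In monocytes or macrophages none of 10 was higher and 1 was lower, against 5.55% and 6.45% of all genes. In conventional dendritic cells 1 of 6 was higher and none was lower, against 6.62% and 6.01%. In T cells 4 of 9 were higher and none lower (3.33% and 1.26% of all genes), in NK cells 2 of 4 were higher and 1 lower (3.88% and 5.65%), and in hepatoma cells 4 of 10 were higher and none lower (2.23% and 3.33%). The median log2 ratio of all genes was −0.18 in neutrophils and within 0.03 of 0 in the other 5 cell types, so neutrophil ratios are also given relative to that median.

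**Figure D1:**
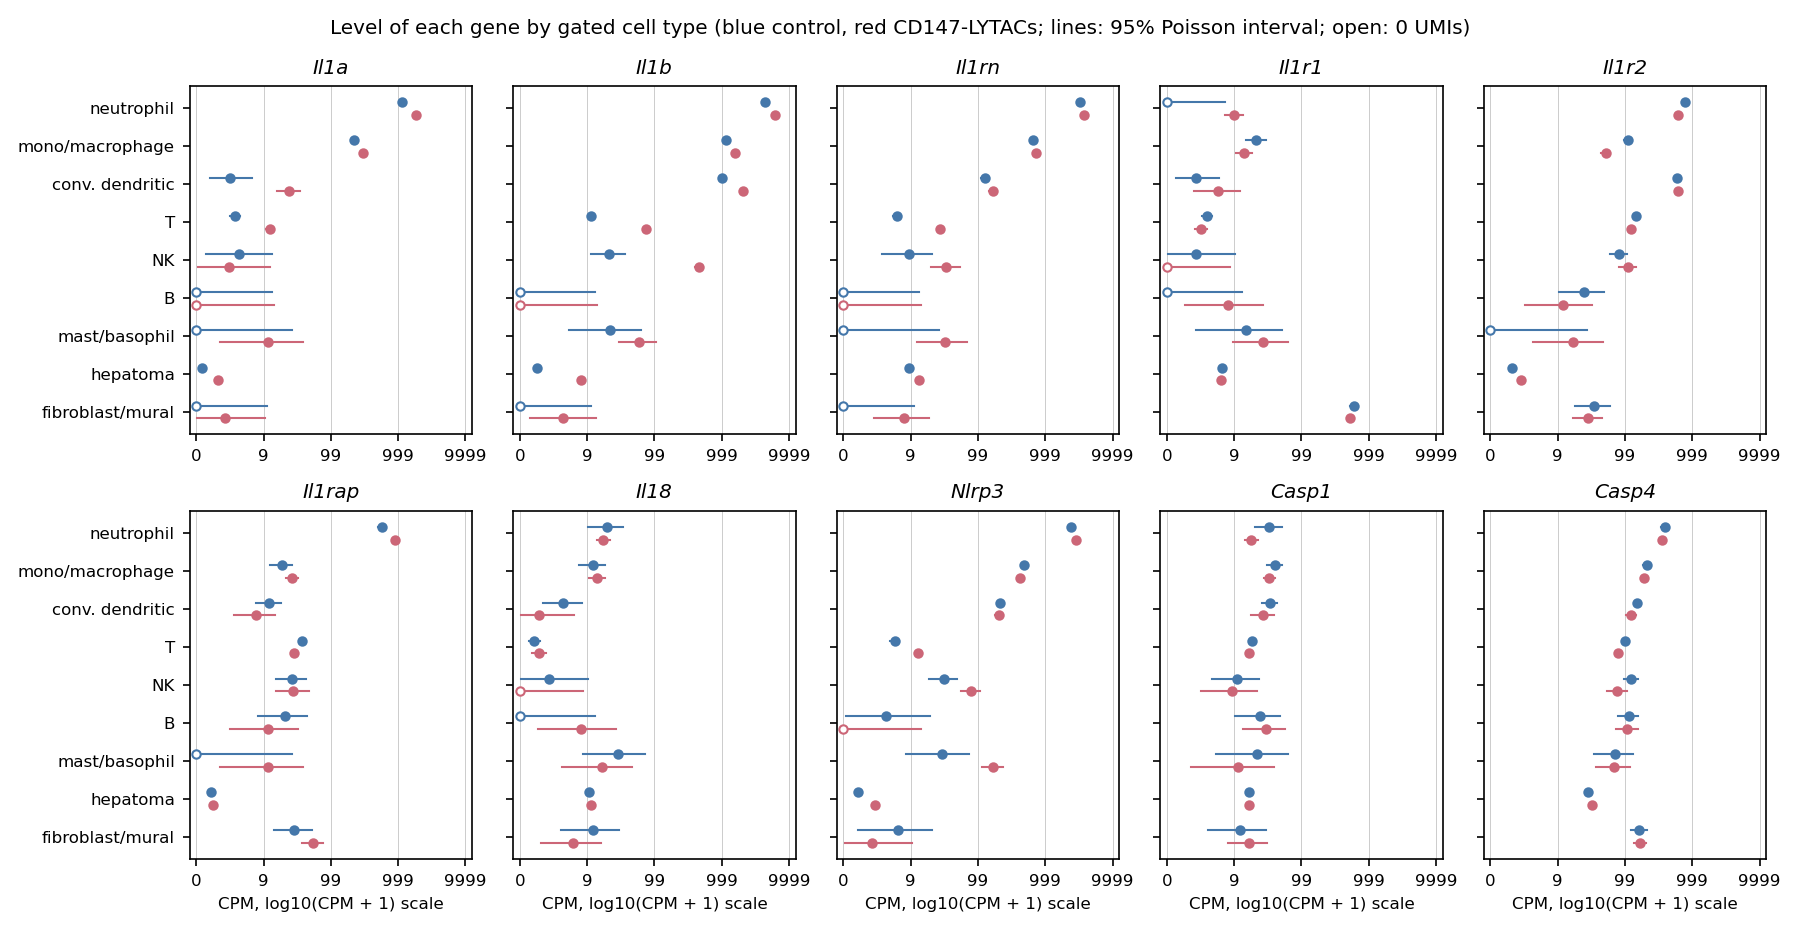
Level of each of the 10 genes (x axis, CPM on a log10(CPM + 1) scale) in 9 gated cell types (y axis) of the control library (blue) and the CD147-LYTACs library (red). Points are levels from summed UMIs, lines are 95% Poisson intervals, and open points mark 0 UMIs. The interleukin 1 ligand genes, Il1rn and Nlrp3 are furthest right in neutrophils, and Il1r1 is furthest right in fibroblast or mural cells.

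Among the ligands, Il1a, which encodes interleukin 1 alpha, was the member with the larger ratio in neutrophils. Its level there was 1136 CPM in the control library (95% interval 1051 to 1225, 667 UMIs) and 1840 CPM in the treated one (1799 to 1881, 7792 UMIs). The intervals did not overlap, and the log2 ratio was 0.70 (0.58 to 0.81), or 0.87 relative to the median gene. Taken as a mean over cells in place of a sum, it was 0.49, under 1.5-fold. Monocytes or macrophages came next in the order of levels, with 220 and 303 CPM, a log2 ratio of 0.46 (0.28 to 0.64) that did not reach 1.5-fold. All other gated types were at or below 22.9 CPM, and their combined intervals over the 2 libraries overlapped with their neighbours in the order. In conventional dendritic cells Il1a had 4 UMIs in the control and 24 in the treated library, too few for the count.

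Il1b, which encodes interleukin 1 beta, had 2616 UMIs in control neutrophils and 26392 in treated neutrophils. These gave 4454 CPM (4285 to 4628) and 6231 CPM (6156 to 6307), a log2 ratio of 0.48 (0.43 to 0.54). The intervals were apart, but the ratio was under 1.5-fold. Relative to the median gene the log2 ratio was 0.66, and with cells taken from clusters it was 0.63, both past 1.5-fold. Conventional dendritic cells and monocytes or macrophages followed, and these neighbours in the order overlapped. In conventional dendritic cells the level was 1007 CPM (961 to 1055) in the control and 2057 CPM (1971 to 2146) in the treated library, a log2 ratio of 1.03 (0.94 to 1.12). Few cells carried much of that signal: the 5 cells with most Il1b held 45.7% of the treated UMIs and 27.9% of the control UMIs. The 15 type 2 dendritic cells of the treated library, described with the subsets, held 796 of its 2156 dendritic Il1b UMIs. The summed neutrophil markers in this gate were 341.5 and 407 CPM, with 8 of 14 higher and 5 and 3 at 0, and the monocyte or macrophage markers 350.4 and 343 CPM, with 12 of 17 higher and Trem2 at 0 in the control library. Their part in the result was not tested. In monocytes or macrophages the Il1b level was 1162 and 1597 CPM, with a log2 ratio of 0.46 (0.38 to 0.54). That ratio was 0.02 when cell types came from clusters rather than marker gates. In the marker gate 11 of 14 neutrophil markers were higher, and their part in the ratio was not tested. B cells, which had 0 Il1b UMIs among 43 control and 27 treated cells, allow a share of cells with a UMI of up to 6.98% and 11.1%.

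Il1rn encodes the receptor antagonist. Its neutrophil levels were 3242 CPM (3098 to 3390) and 3785 CPM (3726 to 3844), a log2 ratio of 0.22 (0.15 to 0.29) and 0.40 relative to the median gene. Monocytes or macrophages held 662 and 722 CPM and conventional dendritic cells 125 and 167 CPM. None of these 3 ratios reached 1.5-fold. Hepatoma cells had 8.52 and 12.3 CPM, yet, being deep and many, they held 17.1% of the gene's UMIs in the control library and 5.46% in the treated one.

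Il18, the ligand gene of the related interleukin 18 pathway, showed a different distribution. Of its UMIs, 92.8% (of 1010) in the control library and 86.0% (of 1196) in the treated library were in hepatoma cells. The level there was 9.83 CPM (9.21 to 10.5) and 10.3 CPM (9.67 to 10.9), with a log2 ratio of 0.07 (−0.06 to 0.20), and these intervals overlapped. Because hepatoma cells had median depths of 47430.5 and 44029 UMIs, 33.2% and 32.3% of them had at least 1 Il18 UMI, but after thinning to 1000 UMIs per cell the shares were 0.918% and 0.980%. Neutrophils had 18.7 CPM (9.35 to 33.5) and 16.5 CPM (12.9 to 20.9) from 11 and 70 UMIs.

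Of the receptor chains, Il1r1, the signalling chain, was highest in fibroblast or mural cells. Its level was 603 CPM (525 to 689) in 22 control cells and 523 CPM (466 to 585) in 40 treated cells, and the intervals overlapped. After thinning, 40.9% and 41.0% of those cells held an Il1r1 UMI, against 90.9% and 87.5% before. The hepatoma level was 5.67 and 5.33 CPM, a log2 ratio of −0.09 (−0.27 to 0.08), and hepatoma cells held 60.3% and 52.2% of the gene's UMIs. Neutrophils had 0 Il1r1 UMIs in the control and 38 in the treated library. With a floor of 3 UMIs for the control library, the treated level of 8.97 CPM was 1.76-fold that floor, which is not a lower limit. The control interval reached up to 6.28 CPM and the treated one began at 6.35 CPM. Only 1.09% of treated neutrophils had a UMI, the 5 cells with most held 71.1% of them, and the UMIs were too few for the count. Within T cells, the small gamma-delta or type 17 subset, named for its receptor and interleukin 17 genes, had 253 CPM (160 to 379) in 15 control cells and 246 CPM (140 to 399) in 11 treated cells.

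Il1rap, the accessory chain, was the other member that was higher in neutrophils. The control level was 567 CPM (508 to 631, 333 UMIs) and the treated level 885 CPM (857 to 914, 3750 UMIs), without overlap. The log2 ratio was 0.64 (0.48 to 0.81), or 0.82 relative to the median gene. It fell just short of 1.5-fold with up to 25% mitochondrial UMIs allowed (0.58), with cells taken from clusters (0.55) and as a mean over cells (0.48). T cells had 36.2 and 27.5 CPM, a log2 ratio of −0.40 (−0.55 to −0.24) in the other direction and short of 1.5-fold. Monocytes or macrophages had 17.6 CPM (11.6 to 25.6) and 25.9 CPM (20.9 to 31.7), which overlapped.

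Il1r2, the decoy receptor, was held by several kinds of leukocytes. Neutrophils had 775 CPM (705 to 849) and 614 CPM (590 to 638), a log2 ratio of −0.34 (−0.48 to −0.19), or −0.16 relative to the median gene. Conventional dendritic cells had 591 CPM (556 to 627) and 614 CPM (568 to 664), and those intervals overlapped each other and the neutrophil range. Monocytes or macrophages had 110 CPM (94.1 to 128, 169 UMIs) and 50.3 CPM (43.2 to 58.3, 179 UMIs), the one lower member in that gate, with a log2 ratio of −1.13 (−1.44 to −0.82). The 5 cells with most Il1r2 in that gate held 46.7% of the control UMIs and 35.8% of the treated UMIs. After thinning, 9.77% of control and 2.56% of treated monocytes or macrophages held an Il1r2 UMI (23.8% and 12.4% unthinned). At 2000 UMIs per cell the shares were 11.5% (6.98 to 17.6) and 6.79% (4.60 to 9.61), and these intervals overlapped. The log2 ratio was −0.58 when cells were taken from clusters, where it no longer passed the rule, and −1.68 with 1 more marker asked of the gate. In this gate the summed neutrophil markers were 1414 and 1502 CPM, with 11 of 14 higher and Cxcr2 and Lcn2 at 0 in the control library. Among these 14, S100a8 was 9.12 and 57.4 CPM and S100a9 3.91 and 23.6 CPM. The part of neutrophil RNA in the result was not tested. Among T cells the level of Il1r2 was highest in the conventional CD4 subset, with 641 CPM (608 to 675) in 285 control cells and 494 CPM (459 to 532) in 182 treated cells. Regulatory T cells had 239 and 229 CPM, and CD8 T cells 77.1 and 70.3 CPM. The CD8 T cells, being many, held more of the UMIs, with 1560 in the control and 1092 in the treated library, against 1446 and 717 in the conventional CD4 subset. In both libraries the 3 subsets kept that order without overlap of their intervals.

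**Figure D2:**
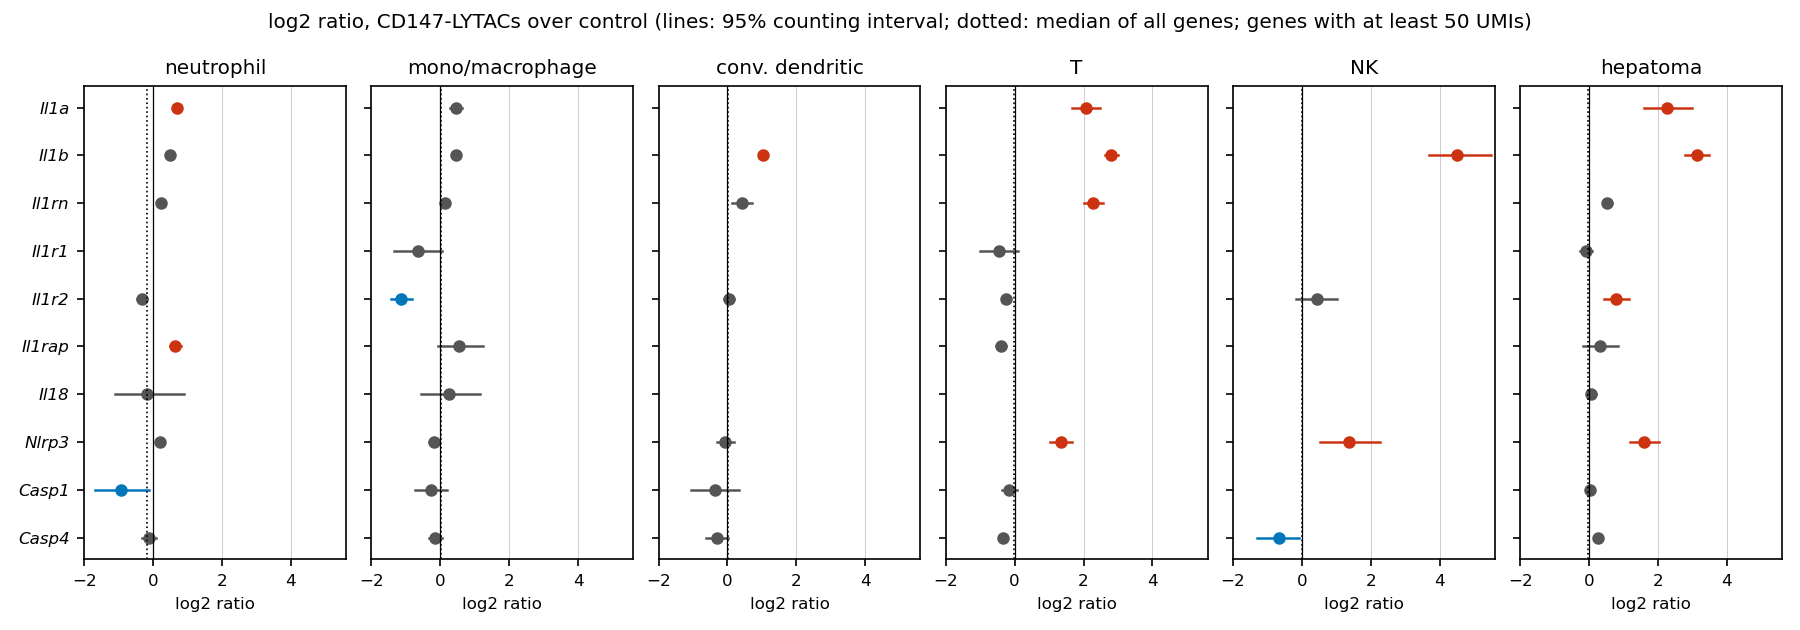
log2 ratio of CD147-LYTACs over control (x axis) for each gene (y axis) in 6 cell types, for genes that reached 50 UMIs when the 2 libraries were added. Lines are 95% counting intervals, red and blue points passed the 1.5-fold rule as higher or lower, and the dotted line is the median of all genes. Il1a and Il1rap lie to the right in neutrophils, Il1r2 to the left in monocytes or macrophages, and the widest shift is that of Il1b in NK cells, where 1 treated cell held 207 of 225 UMIs.

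The inflammasome sensor gene Nlrp3 had 2448 CPM (2323 to 2578) in control and 2840.5 CPM (2790 to 2892) in treated neutrophils, a log2 ratio of 0.21 (0.14 to 0.29), or 0.39 relative to the median gene. Monocytes or macrophages had 483 and 422 CPM, with a log2 ratio of −0.19 (−0.32 to −0.07). Conventional dendritic cells had 212 CPM (191 to 234) and 203 CPM (177 to 232), which overlapped. No ratio in these 3 types reached 1.5-fold.

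Casp1, the protease that cuts the interleukin 1 beta precursor, was the lower member in neutrophils, from 32.3 CPM (19.5 to 50.5) to 16.999 CPM (13.3 to 21.4). Those levels rest on 19 control and 72 treated UMIs, the intervals overlapped, and the log2 ratio was −0.93 (−1.67 to −0.12). At −0.75 relative to the median gene its interval no longer excluded 0, and the call was also lost with stricter cell filters. Monocytes or macrophages had 39.1 and 32.3 CPM, and hepatoma cells 15.3 CPM (14.6 to 16.2) and 15.8 CPM (15.002 to 16.6), both with overlapping intervals. Of all Casp1 UMIs, 68.1% in the control and 70.2% in the treated library were in hepatoma cells. Casp4 had 386 CPM (338 to 440) and 358 CPM (340 to 377) in neutrophils, 208 and 188 CPM in monocytes or macrophages and 26.7 and 31.8 CPM in hepatoma cells. In T cells its level was 97.7 CPM (93.9 to 102) and 76.8 CPM (73.0 to 80.8), a log2 ratio of −0.35 (−0.44 to −0.25). None of the 4 Casp4 ratios reached 1.5-fold.

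Shares of cells showed the same ordering of the libraries at equal depth in neutrophils. Thinning to 1000 UMIs kept 166 of 182 control and 1327 of 1377 treated neutrophils. An Il1b UMI was found in 77.7% (95% Clopper-Pearson interval 70.6 to 83.8) of control and 86.6% (84.6 to 88.4) of treated cells, against 85.7% and 92.7% unthinned. At 2000 UMIs per cell the Il1b shares were 88.1% (81.5 to 93.1) and 93.0% (91.3 to 94.4), which overlapped. For Il1rap the thinned shares were 31.9% (24.9 to 39.6) and 45.1% (42.4 to 47.8), and these intervals did not overlap. For Il1a they were 51.2% (43.3 to 59.0) and 59.9% (57.2 to 62.6), which overlapped. Il1r2 ran the other way, with 46.4% (38.6 to 54.3) and 37.7% (35.1 to 40.3). Of treated neutrophils with an Il1b UMI, 84.7% (82.5 to 86.7) also had an Nlrp3 UMI, against 56.2% (48.6 to 63.6) of those without, and these intervals did not overlap. In the control library the shares were 78.3% (70.2 to 85.1) and 56.8% (39.5 to 72.9), which did. The contrast was not particular to Nlrp3. Il1a was found in 63.5% and 36.5% of treated neutrophils with and without Il1b, and Il1rap in 47.1% and 32.02%. Neither pair of intervals overlapped in the treated library, but both pairs did in the control library. Il1rn was found in 86.3% and 82.6% of these treated cells, Il1r2 in 38.8% and 30.3% and Casp4 in 26.5% and 20.2%. The treated intervals of Il1rn, Il1r2 and Casp4 overlapped.

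Neutrophils were further divided by whether at least 2 of Slpi, Lcn2 and the stefin genes were detected, a set of protease inhibitor and granule genes. The 64 control and 860 treated cells with at least 2 were set beside the 118 and 517 cells with fewer. In cells with at least 2, Il1a was 798 CPM (696 to 912) in the control and 1895 CPM (1845 to 1945) in the treated library, a log2 ratio of 1.25 (1.05 to 1.45). In cells with fewer it was 1426 CPM (1297 to 1564) and 1719 CPM (1649 to 1791), a log2 ratio of 0.27 (0.12 to 0.42). For Il1b the levels were 3840 and 6557 CPM (log2 ratio 0.77, 0.68 to 0.86) in the first subset and 4982 and 5516 CPM (0.15, 0.07 to 0.23) in the second. The subset with fewer of these genes had the higher Il1a and Il1b level in the control library and the lower one in the treated library. Il1rap had the larger ratio in the second subset, with 469 and 820 CPM (0.81, 0.56 to 1.06), against 681 and 915 CPM (0.43, 0.21 to 0.65) in the first. The difference between subsets was not tested, since each library is 1 sample, and Slpi and Lcn2 are also markers of the neutrophil gate.

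**Figure D3:**
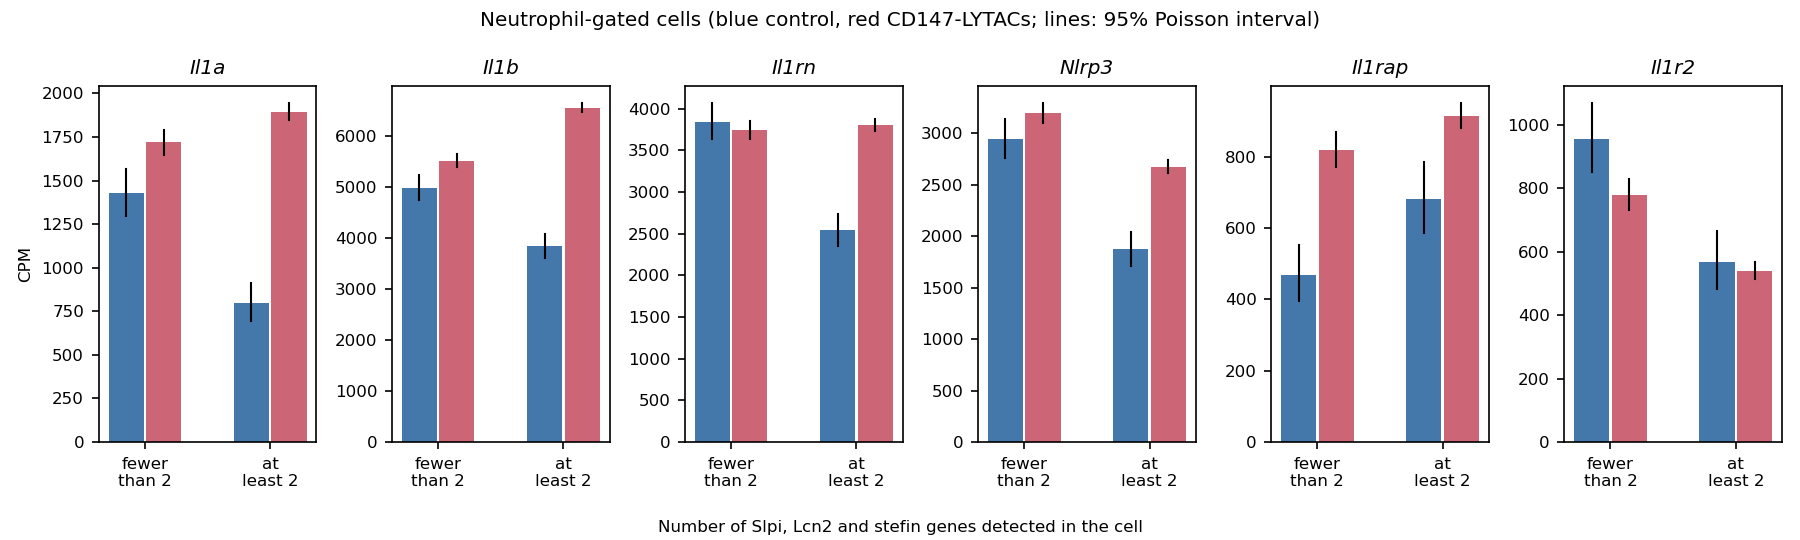
Level (y axis, CPM) of 6 genes in neutrophils with fewer than 2, or at least 2, of Slpi, Lcn2 and the stefin genes (x axis) in the control (blue) and CD147-LYTACs (red) libraries. Bars are levels from summed UMIs, and lines are 95% Poisson intervals. Il1a and Il1b bars differ most between libraries in the cells with at least 2 of these genes.

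Il1b was higher in treated cells of one macrophage subset and lower in CPM in another. Lipid-associated macrophages, marked by Trem2 and related lipid-handling genes, had 636 CPM (583 to 692) in 51 control cells and 1290 CPM (1246 to 1335) in 285 treated cells, a log2 ratio of 1.02 (0.89 to 1.15). C1q macrophages, marked by the complement C1q genes, had 1330 CPM (1219 to 1448) in 66 control cells and 911 CPM (821 to 1008) in 82 treated cells, a log2 ratio of −0.55 (−0.74 to −0.35) that was short of 1.5-fold. Ly6c2 monocytes had the highest level in each library among these 3 subsets, with 3371 CPM (3099 to 3661) in 25 cells and 4165 CPM (3961 to 4377) in 75 cells. Il1r2 was lower in both macrophage subsets, from 91.0 to 39.2 CPM in the lipid-associated cells and from 178 to 72.7 CPM in the C1q cells. In Ly6c2 monocytes it was 83.7 CPM (45.8 to 140) and 98.8 CPM (69.5 to 136), which overlapped. These subsets were set by the number of markers detected, which depends on depth. Control and treated median depths were 11934 and 6278 UMIs in lipid-associated cells and 4686.5 and 4084.5 UMIs in C1q cells. Cells that met both rules were counted as lipid-associated. The Arg1 monocytes were 1 control cell and 41 treated cells, so their levels were not compared.

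Dendritic subsets were small. Type 2 dendritic cells had 663 CPM (531 to 819) of Il1b in 9 control cells and 3950 CPM (3680 to 4234) in 15 treated cells. In type 1 dendritic cells it was 679 CPM (622 to 740) in 38 cells and 865 CPM (715 to 1036) in 9 cells, and in mature dendritic cells 1162 and 1686 CPM in 46 and 41 cells. Il1r2 was 668 CPM (608 to 734) and 461 CPM (404 to 523) in mature dendritic cells, and 445 and 259 CPM in type 1 cells.

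**Figure D4:**
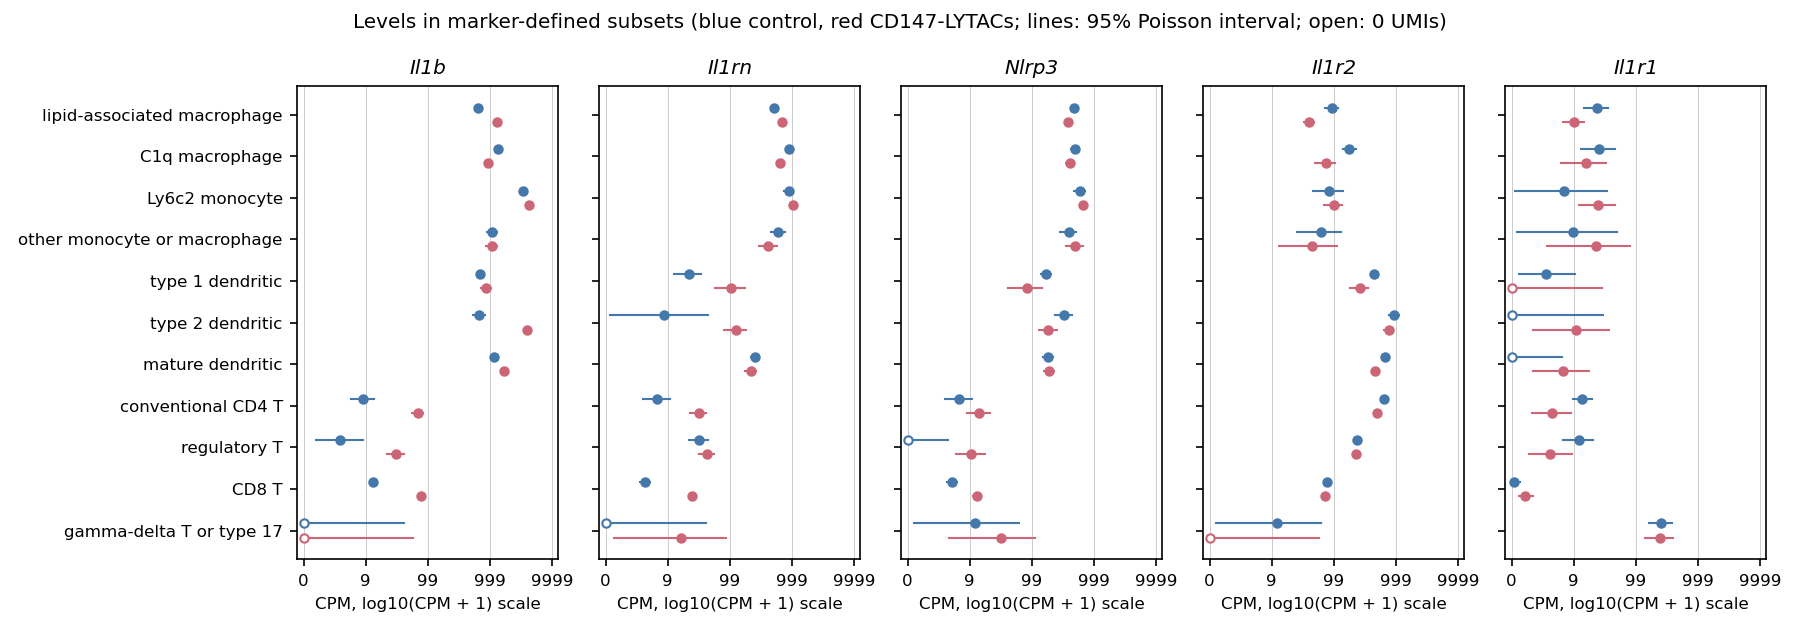
Levels of 5 genes (x axis, CPM on a log10(CPM + 1) scale) in marker-defined subsets of monocytes or macrophages, dendritic cells and T cells (y axis), control in blue and CD147-LYTACs in red. Lines are 95% Poisson intervals, and open points mark 0 UMIs. For Il1b the red point lies right of the blue one in lipid-associated macrophages and left of it in C1q macrophages, Il1r2 is highest among T cells in the conventional CD4 subset, and Il1r1 among T cells in the gamma-delta or type 17 subset.

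The source of the transcripts within each library moved with the number of neutrophils, which were 4.37% of control and 29.0% of treated immune cells. Neutrophils held 48.9% of the Il1a UMIs in the control and 77.04% in the treated library. For Il1b the shares were 29.9% and 60.9%, for Il1rn 40.1% and 71.1%, for Nlrp3 42.1% and 76.5%, and for Il1rap 22.2% and 78.5%. Il1rap UMIs were mostly in T cells in the control library (63.1%), as were those of Il1r2 (55.9%, against 33.5% in the treated library). Per 1000 immune cells, Il1a UMIs were 260 in the control and 1920 in the treated library, a 7.38-fold difference. Holding the control mean UMIs per cell of each type and taking the treated mix of cell types gave 4.93-fold. Holding the control mix and taking the treated mean UMIs per cell gave 1.61-fold. For Il1b the total was 4.84-fold, against 3.58-fold with only the mix changed and 1.63-fold with only the UMIs per cell changed. For Nlrp3 the values were 4.55-fold, 4.35-fold and 1.03-fold, and for Il1rn 5.14-fold, 4.70-fold and 1.203-fold. For Il1rap they were 2.85-fold, 2.16-fold and 0.963-fold. Il1r2, Casp1 and Casp4 totals were 0.943, 0.785 and 0.987 times the control totals. The values for mix and for UMIs per cell come from separate settings and need not multiply to the total. UMIs per cell are not scaled for depth, so any difference in depth between the libraries is part of these values. Mixed cells, which held 18.1% of control and 12.6% of treated Il1b UMIs, are not in these totals.

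**Figure D5:**
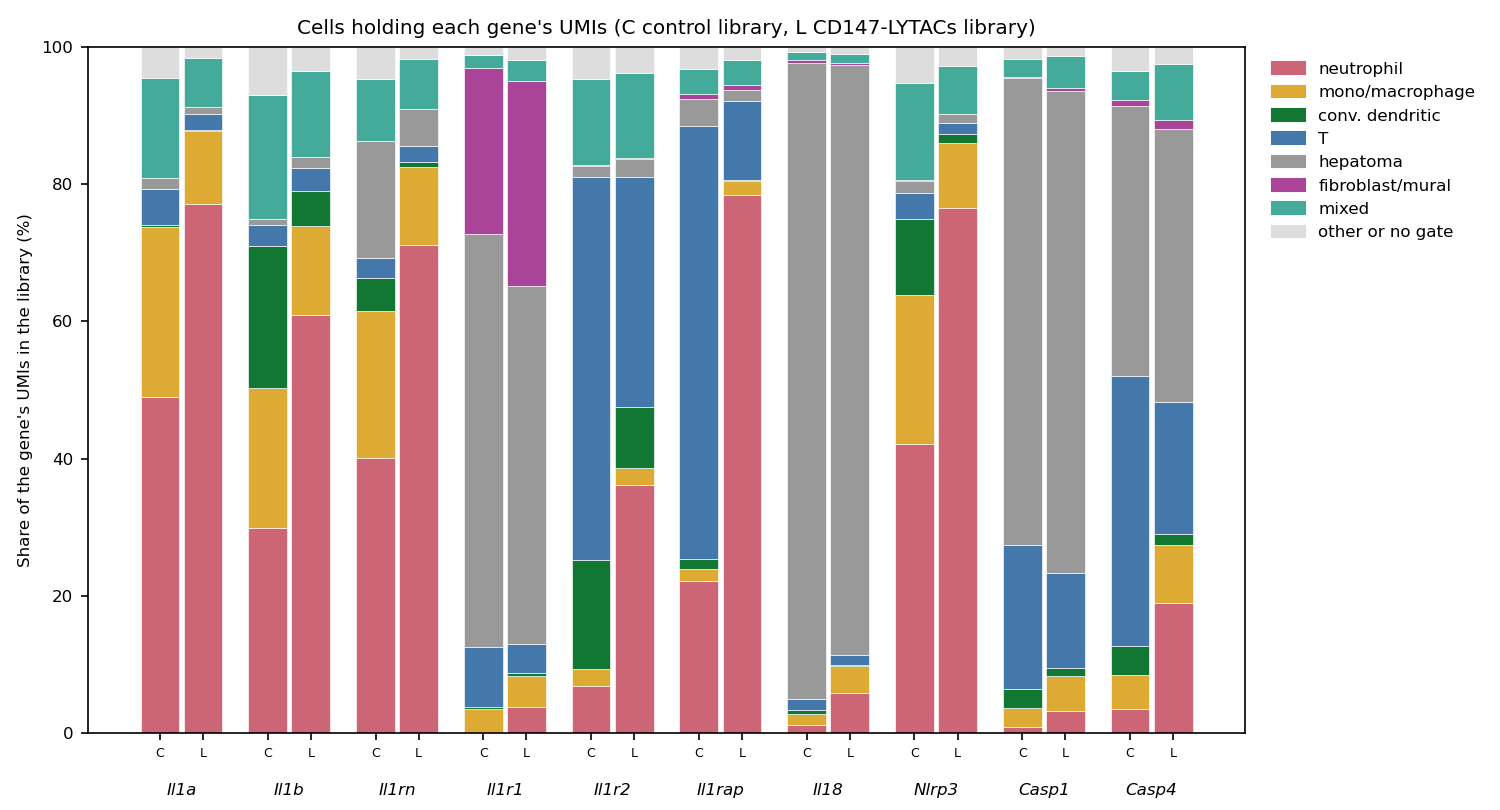
Share of each gene's UMIs (y axis, %) by the cells that held them, in the control (C) and CD147-LYTACs (L) libraries. Colours are gated cell types, mixed cells matched more than one panel, and the rest is shown in light grey. The neutrophil share is larger in the treated library for all 10 genes, while Il18 and Casp1 lie mostly in hepatoma cells.

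In T cells the 4 higher members were Il1a, Il1b, Il1rn and Nlrp3, whose highest cell type is the neutrophil, and their UMIs lay in few T cells. Il1b was 10.4 CPM (9.21 to 11.7) in the control and 73.0 CPM (69.3 to 76.8) in the treated library, from 57 of 3515 and 175 of 2581 cells, and the 5 cells with most held 73.3% and 37.0% of the UMIs. Il1rn was 5.34 and 25.9 CPM, Nlrp3 4.76 and 12.1 CPM and Il1a 2.74 and 11.5 CPM. Neutrophil markers moved with them: 14 of 14 panel genes were higher in treated T cells and their summed level went from 119 to 186 CPM, with Cxcr2 and Mmp8 at 0 in the control library. Of the 17 monocyte or macrophage markers 14 were higher, while their summed level was 599 and 561 CPM and none was at 0. Among these 17, C1qb went from 2.29 to 5.98 CPM and Csf1r from 1.26 to 2.79 CPM. Treated T cells with an Il1b UMI held a mean of 3.03 monocyte or macrophage markers against 1.24 in those without, and 1.80 against 0.691 neutrophil markers, at median depths of 8257 and 6107 UMIs. If all S100a8 and S100a9 UMIs of T cells came from neutrophil RNA, that RNA would give 0.599 CPM of Il1b in the control and 3.88 CPM in the treated library. The part of other cells' RNA in these values was not tested. After thinning, 0.343% of control and 2.14% of treated T cells held an Il1b UMI (1.62% and 6.78% unthinned). The Il1b log2 ratio of 2.81 (2.62 to 3.00) was 2.06 with a stricter purity gate and 1.66 with clusters. Cells with both T and monocyte or macrophage markers, kept out of the T gate, had 357 and 971 CPM of Il1b.

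In NK cells, Il1b rested on 12 UMIs in 1 control cell and 225 UMIs in 4 treated cells, of which 1 cell held 207. Nlrp3 had 18 and 38 UMIs, of which 1 cell in each library held 16 and 28, and Casp4 was the lower member, with 72 and 37 UMIs. Neutrophil markers summed to 187 CPM in the control and 351 CPM in the treated NK cells, with 7 and 5 of 14 at 0, and monocyte or macrophage markers to 399 and 289 CPM, with 5 and 6 of 17 at 0. Their part in the result was not tested.

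In hepatoma cells the 4 higher members were Il1a, Il1b, Nlrp3 and Il1r2, all at low levels. Il1b was 0.808 CPM (0.637 to 1.009) in the control and 7.02 CPM (6.51 to 7.56) in the treated library, in 3.45% and 15.9% of cells, and thinning to 1000 UMIs left 0 of 1852 control cells, which allows up to 0.162%, and 0.833% of treated cells. The 5 cells with most Il1b held 22.1% of the control and 37.3% of the treated UMIs, and 1 treated cell held 145 of 702. Il1a was 0.231 and 1.10 CPM, Nlrp3 0.661 and 1.99 CPM, and Il1r2 1.06 and 1.83 CPM. For Il1r2 the 5 cells with most held 54.1% of the treated UMIs, and the log2 ratio of 0.79 was 0.05 with a stricter purity gate. For Nlrp3 the log2 ratio of 1.59 was 0.20 as a mean over cells. Neutrophil markers summed to 58.9 and 89.5 CPM in these gates, with 13 of 14 higher and none at 0, and S100a8 went from 0.829 to 5.15 CPM. Monocyte or macrophage markers summed to 417 and 425 CPM, with 11 of 17 higher and none at 0. Among these 17, C1qb was 0.346 and 0.890 CPM and Csf1r 10.0 and 10.7 CPM. If all S100a8 and S100a9 UMIs of hepatoma cells came from neutrophil RNA, that RNA would give 0.204 CPM of Il1b in the control and 2.37 CPM in the treated library. For Il1a it would give 0.0521 and 0.699 CPM, for Nlrp3 0.112 and 1.08 CPM, and for Il1r2 0.0356 and 0.233 CPM. The part of RNA from neutrophils and from monocytes or macrophages was not tested.

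A list of 59 other genes of the pathway gave the surroundings of these values. It was written with earlier results of these data known, so its counts are a description only. In neutrophils 40 were tested, of which 7 were higher and 5 lower (4.47% and 17.6% of all genes), with a median log2 ratio of −0.07 against −0.18 for all genes. The genes known to respond to interleukin 1 held 4 of the 7: Csf3, a neutrophil growth factor (78.3 and 574 CPM), Saa3, an acute phase gene (30.6 and 210 CPM), and the neutrophil chemokine genes Cxcl1 (269 and 421 CPM) and Cxcl2 (34424 and 64671 CPM). Of the 8 listed response genes 6 were tested there. Cd14, the lipopolysaccharide coreceptor, was 1888 and 4130 CPM, and P2rx7, the ATP receptor that triggers the Nlrp3 inflammasome, 17.02 and 71.1 CPM from 10 and 301 UMIs. Il1f6, an interleukin 36 ligand gene, was 10.2 and 26.7 CPM. Of 11 tested inflammasome genes, 1 was higher (P2rx7) and 3 were lower, with 17.6% of all genes lower in this gate, so the count of lower genes is not read as a result about the list. The 3 were the adaptor gene Pycard (28.9 and 13.7 CPM), Nlrc4 (39.2 and 12.0 CPM) and Naip2 (81.7 and 43.4 CPM). The kinase gene Map3k7 and the myeloid transcription factor gene Spi1 were also lower.

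In monocytes or macrophages, 6 of 42 pathway genes were higher and 3 lower, where 5.55% and 6.45% of all genes were, so the count of lower genes was near that of any genes. Saa3 (88.6 and 514 CPM), Cxcl1 (238 and 704 CPM), Cxcl2 (3806 and 9397 CPM), Csf3 (41.0 and 91.1 CPM), Cd14 (681 and 1111 CPM) and the interleukin 18 receptor gene Il18r1 (28.7 and 49.8 CPM) were higher. The cytokine gene Il6 (56.7 and 26.4 CPM), Nlrp1b and Naip2 were lower. In this gate 11 of 14 neutrophil markers were also higher, with S100a8 at 9.12 and 57.4 CPM, and their part in these values was not tested. Conventional dendritic cells had 5 of 31 higher and 1 lower (6.62% and 6.01% of all genes), with Il6 at 13.3 and 47.7 CPM, in the other direction from macrophages. In T cells 11 of 46 were higher and none lower (3.33% and 1.26% of all genes), among them all 6 tested response genes. One of these 6 is Lcn2, which is also a marker of the neutrophil gate, and the 14 of 14 neutrophil markers that were higher in treated T cells stand beside this count, their part in it not tested. In NK cells 3 of 19 were higher and 1 lower (3.88% and 5.65% of all genes), and in hepatoma cells, where 13 of 14 neutrophil markers were higher, 8 of 48 were higher and none lower (2.23% and 3.33%). Hepatoma cells had 15.7 CPM (14.9 to 16.5) of Cxcl1 in the control and 28.5 CPM (27.4 to 29.5) in the treated library, and 307.8 and 344 CPM of P2rx7, a log2 ratio of 0.16.

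Likeness of pattern was described by Pearson's r of log2(CPM + 1) over 12 profiles, which are 6 cell types in each of 2 libraries and share depth and library. The nearest genes to Nlrp3 were Fgr (r = 0.993), Emilin2 (0.990) and Osm (0.988). Those nearest to Il1a were C5ar1 (r = 0.985), Rhov (0.983) and Msrb1 (0.977), and those nearest to Il1b were Alox5ap (0.971), Ptgs2 (0.971) and Csf2rb2 (0.965). Il1rn was nearest to Prdx5 (0.989), Mcl1 (0.987) and Clec4d (0.983), Il1r2 to Samsn1 (0.976), Bcl2a1b (0.972) and Cd80 (0.972), and Il1rap to Rbks (0.978), Dhx40 (0.976) and Stx11 (0.974). For Il1r1, whose highest cell type had too few cells to enter the profiles, the nearest was Fmn1 (0.859). With a pseudocount of 10 CPM, 0 to 2 of the 3 nearest genes stayed in the list of each member. Among the members themselves the highest r was that of Il1b and Nlrp3, 0.963.

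The gene models of Il1a, Il1b and Il1rap share exon bases with genes on the opposite strand, and the sources used here do not state whether the counting used strand. In neutrophils the partner of Il1b, Il1bos, had 24 and 176 UMIs, the partner of Il1a, Gm14023, 32 and 281, and the partner of Il1rap, Gm20319, 0 and 9.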

How the data were processed

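Single cells of Hepa1-6 tumours were measured in 2 libraries, 1 control and 1 given CD147-LYTACs. The deposited values are raw UMI counts per gene and barcode, from Cell Ranger 3.0.2 on mm10 per the submitters' processing notes and from Cell Ranger 7.1.0 per the file headers. The annotation release and the use of strand are not given in the sources used here.

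Barcodes with at least 500 UMIs, 300 genes and at most 15% mitochondrial UMIs were kept, and the highest Scrublet scores (scanpy 1.11.5) were removed at 0.8% per 1000 barcodes, since the automatic threshold marked 1 and 134 barcodes. A cell joined the type whose marker panel scored highest (mean log of counts per 10000, scaled to a high percentile of each panel) with at least 3 markers and a score of at least 0.15, and was called mixed where a second panel passed 0.6 of the first. The scoring rule was set after seeing the data, from its match with clusters, in place of a first version that left many cells of the macrophage cluster ungated. Of the kept cells 35 in each library lay within 20% of the score cut. Subset thresholds (4 of 6 lipid-associated, 3 of 5 C1q, 3 type 17 and otherwise 2 markers) were also set with the data known.

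UMIs were summed per library and type, with exact Poisson 95% intervals for levels, exact conditional binomial intervals for log2 ratios and Clopper-Pearson intervals for shares (scipy 1.17.1). UMI counts are of molecules, and the intervals cover counting error only. The ratio and its rule were tested on simulated data. A count of 0 was taken to allow 3 counts. Named genes were the members, the pathway list, the markers and, for each member with at least 100 UMIs, the 3 genes of at least 50 CPM with the highest r. The members, lists and motifs were chosen with earlier results of these data known. Alternatives changed the barcode filters, doublet removal, the gate, the scaling, the fold, the count minimum and the thinning depth.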

Additional observations from a re-analysis of the deposited data

Results flagged for a closer look

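Some genes were at least 1.5-fold higher in one cell type or subset and at least 1.5-fold lower in another under the same contrast of treated over control, and none of these differences was tested, since each group is 1 library. Il1r2 was higher in hepatoma cells and lower in monocytes or macrophages, a difference of 1.92 between the log2 ratios, and the hepatoma value rests on 5 cells with 54.1% of its treated UMIs. Among subsets, Il1r2 was higher in the dendritic cells outside the 3 dendritic subsets and lower in C1q macrophages (2.06), lipid-associated macrophages (1.98) and type 1 dendritic cells (1.55), with 24 control and 20 treated cells in the first of these. Nlrp3 was higher in CD8 T cells and lower in type 1 dendritic cells (2.55) and type 2 dendritic cells (2.32), from 85 and 185 UMIs in CD8 T cells, 130 and 11 in type 1 and 42 and 37 in type 2 dendritic cells.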

How the results depend on the processing

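Of 426 log2 ratios of 48 gene and cell type pairs under 9 alternative settings, 410 kept their sign, 355 stayed within the counting interval of the reported value and 70 left it. Nlrp3 in NK cells reversed, to −0.64, with 1 more marker asked of the gate. The 2 members higher in neutrophils became 1 with up to 25% mitochondrial UMIs, and 0 at 2-fold or as a mean over cells. They became 3 at 20 UMIs and 3 centred on the median ratio, where Il1b (0.66) joined Il1a and Il1rap, and in clusters the 2 were Il1a and Il1b (0.63), without Il1rap (0.55). The 1 lower member there became 0 with at least 1000 UMIs and at most 10% mitochondrial UMIs, with a second panel under 0.3 of the first (a setting chosen after seeing the data), centred on the median ratio or at 2-fold, and 2 as a mean over cells. In monocytes or macrophages the 0 higher members became 1 without doublet removal or with 1 more marker and 2 as a mean over cells, and the 1 lower became 0 in clusters and 2 with 1 fewer marker or as a mean over cells. In conventional dendritic cells the 1 higher member became 2 in clusters, with the stricter second panel or at 20 UMIs. In T cells 1 member was lower in clusters. In hepatoma cells the 4 higher became 6 without doublet removal and 3 in clusters, with the stricter second panel or at 2-fold, and as a mean over cells they were 4 with Il1rn (0.74) in place of Nlrp3 (0.20). In NK cells the 2 higher became 0 in clusters, with 1 more marker or with the stricter second panel, and 1 with 1 fewer marker, and the 1 lower became 0 in clusters, with 1 more marker or at 2-fold and 2 with 1 fewer. Means over cells were read by fold alone, without an interval. The causes were not tested.

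No paired analysis was possible because each group has 1 library, and no replicate was left out. The number of cells limits precision, with 182 control neutrophils, 117 control conventional dendritic cells, 90 control NK cells and 22 control fibroblast or mural cells, and no interval holds the spread between mice.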
